A study of Rattus norvegicus with 14 samples.

Results

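Stable half-methylated windows are stretches of the genome in which roughly every other CpG read was methylated, at levels within a limited range over all samples. They were chosen by their own methylation levels in the soleus, a calf muscle used in standing and made mostly of slow fibres. A window of 1 kb on chromosomes 1 to 20 was taken when it had a value in all 14 samples, all 14 values lay from 35 to 65%, and the highest and lowest values were at most 15 percentage points apart. Of 131799 autosomal windows with a value in every sample, 4671 (3.54%) met these criteria, and of 194367 windows in all, 135802 had a value in every sample.

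The tissue was the left soleus of female rats aged 23 to 24 months, from generation 44 of 2 lines selected for running capacity out of N:NIH stock. The high-running capacity line (HCR) gave 6 samples and the low-running capacity line (LCR) gave 8. Both lines had standard chow without restriction, and no sample was given another treatment in the labels. DNA methylation was read by reduced representation bisulfite sequencing (RRBS), in which the enzyme MspI cuts DNA at CCGG, short fragments are kept, and bisulfite converts unmethylated cytosines so that they are read as thymine. Bisulfite conversion and amplification were done on pools of unstated membership. Nothing in the labels states that each sample is a different rat, so the p-values below measure the spread between these samples. Whole muscle holds fibres, vessels, nerve, connective tissue and immune cells, and a level in it is an average over all of them.

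CpG methylation is added by DNA methyltransferases and copied to the new strand when cells divide, so that a single CpG on a single DNA copy is either methylated or not. An intermediate level in a tissue can arise when one parental copy is methylated and the other is not, as at the control regions of imprinted genes and at many CpG islands of the inactive X chromosome in females. It can also arise when some cell types carry the methyl group and others do not, or when methylated and unmethylated CpGs lie next to each other within the window. A window average over 1 kb gives the same value in these situations, so they cannot be told apart here. Genes at the positions below were not analysed.

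The levels of the chosen windows are a description of the choice. Their mean over the 14 samples ran from 38.3 to 63.5%, with a median of 50.8% and quartiles of 46.4 and 56.2%. A mean of 45 to 55% was found in 2441 of them (52.3%), and in 12157 of the 33030 other autosomal windows with a mean in the same span (36.8%). The range over the samples had a median of 11.9 points in the chosen windows and 24.6 points in the others. Of the 11000 autosomal windows whose 14 values all lay from 35 to 65%, the chosen windows were 42.5%.

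The steadiest windows varied by less than 4 points over all 14 samples. The smallest range, 3.35 points, was at chr8:74814001-74815000, where the HCR samples had a lowest level of 46.2%, a median of 48.3% and a highest level of 49.5%, and the LCR samples had 46.7, 48.2 and 49.2% in the same order. The 2 lines covered the same span there. At chr8:107267001-107268000 the HCR samples ran from 46.3 to 49.8% with a median of 47.97%, and the LCR samples from 46.6 to 48.8% with a median of 47.8%. At chr8:62257001-62258000 they ran from 60.4 to 63.8% in HCR and from 60.7 to 64.1% in LCR, at chr1:59967001-59968000 from 61.6 to 64.6% in HCR and from 61.1 to 64.8% in LCR, and at chr14:94640001-94641000 from 55.7 to 59.3% in HCR and from 55.5 to 59.2% in LCR. In all 5 the HCR and LCR values overlapped almost fully. These windows were picked for the smallest range over all samples, so the closeness of the lines follows from the pick. A range of at most 5 points was found in 35 of the chosen windows and one of at most 10 points in 1191.

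The limit of 15 points cut through a continuous distribution. The 3 windows just inside it, at chr5:66698001-66699000, chr3:72618001-72619000 and chr7:134031001-134032000, had ranges of 15, 15 and 14.999 points, and the 3 just outside, at chr4:77853001-77854000, chr9:104455001-104456000 and chr14:7136001-7137000, had ranges of 15.001, 15.007 and 15.009 points. On chromosome 5 that window had 35 to 44.8% in the HCR samples and 40.4 to 50% in the LCR samples, with the lines overlapping.

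Steadiness in one line was also seen in the other when only one line was used for the choice, which gives levels in samples that took no part in it. When the criteria were applied to the 8 LCR samples alone, 9869 windows with a value in every sample were chosen. In 7092 of these (71.9%) all 6 HCR samples lay from 35 to 65%, and the median range of the HCR samples was 11.7 points. Among the 28927 windows not chosen, with mean LCR levels in the same span, 35.01% had all 6 HCR samples in that band. Their median HCR range was 17.7 points. In the other direction, with 12167 windows chosen on HCR alone, all 8 LCR samples lay in the band in 65.2% of them and in 28.5% of those not chosen. The median LCR range was 14.0 points in the chosen windows and 19.7 points in the others. Levels were not matched within the span, and windows near 35 or 65% leave the band more easily. The part of this in the contrast was not tested. Read depth is unknown, and windows that are read deeply vary less in every sample, so the part of depth in this was not tested.

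Choosing on a single line left the line difference free to be large. Of the 9869 windows chosen on LCR, 47 (0.476%) had HCR and LCR means at least 15 points apart, with differences from -38.2 to 26.3 points. Those not chosen held 524 such windows (1.81%). Limma called 70 of the 9869 (0.709%) and 182 of the others (0.629%), where the call also depends on the small LCR spread by which the windows were picked.

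Each sample's mean over the chosen windows lay within 2 points of every other. The average was 51.5% ± 0.466 over the 6 HCR samples and 50.9% ± 0.553 over the 8 LCR samples, with SDs between samples. HCR replicate 4 was highest at 51.95%, and LCR replicate 7 was lowest at 50.1%. Among the HCR samples, replicate 3 stood apart at 50.6%, with the others from 51.4 to 51.95%. In the other windows of the same mean level the HCR samples averaged 52.5% ± 1.56 and the LCR samples 50.97% ± 1.68, and the samples with low and high means were largely the same ones. Over all windows with a value in every sample the averages were 35.96% ± 0.980 in HCR and 34.8% ± 1.04 in LCR.

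**Figure D1:**
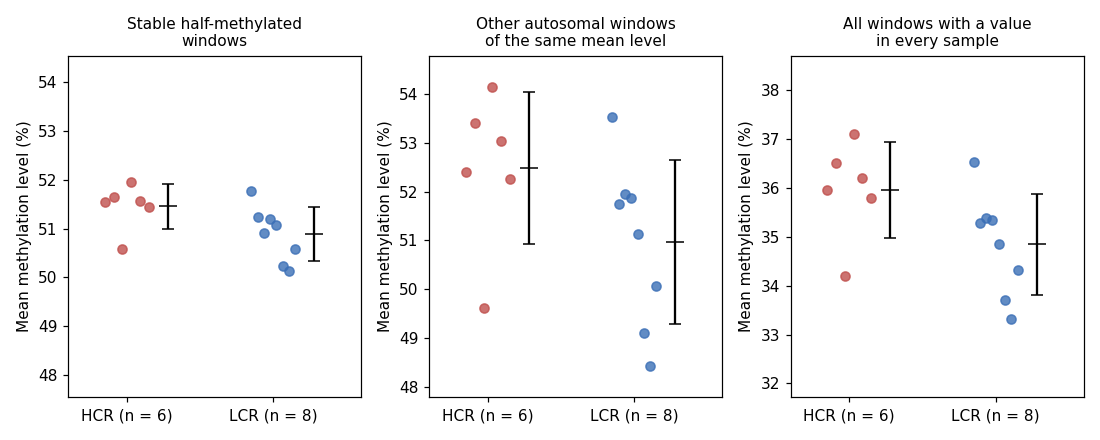
Mean methylation level (%) of each sample over the chosen windows (left), over other autosomal windows of the same mean level (middle) and over all windows with a value in every sample (right); points are samples, bars are the mean ± SD, and each panel spans 7 points. HCR replicate 3 and LCR replicates 6 and 7 are low in all 3 panels, and the samples lie closer together in the left panel, as the choice of windows requires.

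A few samples most often gave the lowest value. LCR replicate 7 was the lowest of the 14 in 673 chosen windows (14.4%), LCR replicate 6 in 512 (10.96%) and HCR replicate 3 in 499 (10.7%), and LCR replicate 1 in 138 (2.95%). LCR replicates 7 and 6 and HCR replicate 3 also had the lowest means over all windows with a value in every sample, 33.3, 33.7 and 34.2%. The highest value was most often that of HCR replicate 4, in 488 windows (10.4%), and least often that of LCR replicate 6, in 233 (4.99%). The root mean square deviation of a sample from the window means was largest in LCR replicate 7, at 3.90 points, and smallest in LCR replicate 4, at 2.998 points. LCR replicate 7 lacked a value in 23521 windows of the file, the most of all samples, and LCR replicate 4 in 2705, the fewest. The parts of depth and of the mean level of each library in these deviations were not tested.

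The difference between the lines was small in these windows, which follows in part from the limit on the range. The HCR mean minus the LCR mean had a median of 0.539 points, with quartiles of -0.695 and 1.82 points and extremes of -8.54 and 9.15 points. It was within 2 points in 67.7% of the chosen windows and in 33.4% of the other windows of the same mean level. A difference of at least 5 points was found in 103 chosen windows (2.21%), 82 of them higher in HCR and 21 lower. In the others it was found in 10122 (30.6%).

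The direction of the mean difference depended on how the libraries were scaled. In the deposited levels the chosen windows averaged 0.560 points higher in HCR, and 2859 of the 4671 (61.2%) were higher in HCR, against 64.6% of all 135802 windows. With each library centred on its own mean the average was -0.558 points and 1769 windows were higher in HCR. After quantile normalization it was -0.970 points and 1431 (30.6%) were higher. The other windows of the same mean level averaged 1.51 points higher in HCR as deposited, 0.387 after centring and 0.00762 after quantile normalization. Of these others 63.2, 52.8 and 49.5% were higher in HCR, in the same order. Centring moved the median difference over all windows from 0.504 to -0.614 points. The limit on the range keeps the differences of the chosen windows small, and its part in their signs was not tested. The median log2 logit difference over all windows, HCR minus LCR, was 0.08 as deposited and -0.07 after centring. The logit is the log2 ratio of methylated to unmethylated shares.

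**Figure D2:**
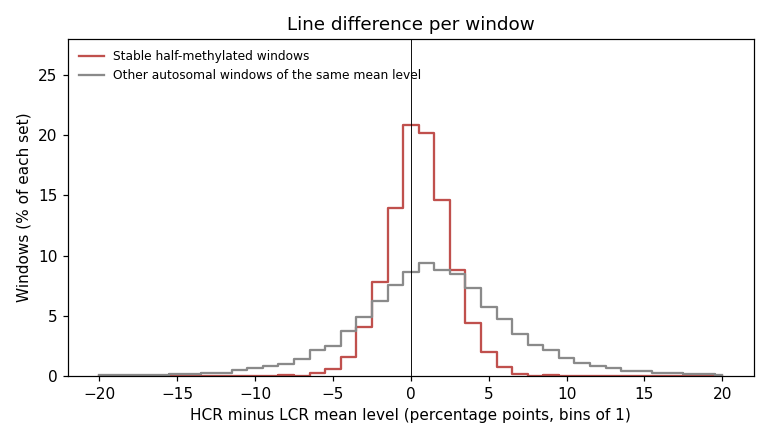
Share of windows (%) by HCR mean minus LCR mean level, in bins of 1 percentage point, for the 4671 chosen windows and the 33030 other autosomal windows of the same mean level. The chosen windows lie between -8.54 and 9.15 points, and 0.684% of the others lie outside the plotted span.

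A single chosen window differed between the lines by limma at a Benjamini-Hochberg adjusted p under 0.05. That is 1 of 4671 (0.0214%), against 773 of all 135802 windows tested (0.569%) and 289 of the 33030 others of the same mean level (0.875%). At an unadjusted p under 0.05 there were 179 chosen windows (3.83%), 137 higher and 42 lower in HCR, against 10.9% of all windows and 12.6% of the others. Limma raises very small spreads towards those of windows of like level, and without this step 6 chosen windows passed. The limit on the range removes windows with a large line difference, so the low share is set in part by the choice.

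The called window was at chr16:24829001-24830000. Its levels had a lowest value of 54.5%, a median of 57.7% and a highest value of 60.8% in the HCR samples, against 46.9, 48.1 and 53.2% in the LCR samples. Every HCR sample was above every LCR sample, and the LCR sample at 53.2%, replicate 5, was the only one of that line above 50%. The 6 HCR samples had a mean of 57.6% ± 2.05 and the 8 LCR samples one of 48.7% ± 2.12. HCR exceeded LCR by 8.96 points, or by 0.51 with an SE of 0.10 on the log2 logit scale (adjusted p = 0.0258 by limma). Its limma adjusted p was above 0.05 in 11 of 22 other settings, at 0.101 with each library centred and 0.103 after quantile normalization. Over all 22 settings it ran from 0.00527 to 0.257. Leaving out HCR replicate 2, 4, 5 or 6 or LCR replicate 2, 3 or 4 each brought it to between 0.0505 and 0.0709.

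The lines did not overlap in 6 chosen windows (0.128%), 4 higher and 2 lower in HCR, against 0.71% of all windows and 0.872% of the others of the same mean level. The largest lower level in HCR was at chr7:54147001-54148000, with 49.1 to 52.6% and a median of 50.1% in the HCR samples, against 53.7 to 62.4% and a median of 60.4% in the LCR samples. Its difference of -8.54 points had a limma adjusted p of 0.0518. At chr8:48265001-48266000 the HCR samples ran from 44.8 to 53.3% and the LCR samples from 53.5 to 59.5%, a difference of -7.72 points (limma adjusted p = 0.0889). These 2 windows were separated by narrow gaps and did not pass the test in the main fit. In 5 of 22 other settings the chromosome 7 window had a limma adjusted p under 0.05, with 0.0335 after quantile normalization. Over all 22 it ran from 0.0287 to 0.257. For the chromosome 8 window it was under 0.05 in 1 setting, at 0.0461 without the raising of small spreads, and reached 0.431.

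Of the separated windows higher in HCR, that at chr2:220086001-220087000 had 47.9 to 53.7% in HCR samples and 40.7 to 47.2% in LCR samples. The window at chr17:62135001-62136000 had 59.4 to 62.6% in HCR and 48.6 to 59.35% in LCR, and that at chr19:52792001-52793000 had 53.3 to 59.6% in HCR and 46.6 to 53.3% in LCR. Limma gave them adjusted p-values of 0.18, 0.137 and 0.153 in this order. All 6 separated windows kept their sign after centring and after quantile normalization. Centring takes the same 1.12 points off the difference of every window. The 6 windows differed by 6.19 to 8.96 points in size, so their sign could not change in that setting. Quantile normalization also moved them little, as from 6.19 to 4.50 points on chromosome 2, so the kept signs are no separate evidence.

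**Figure D3:**
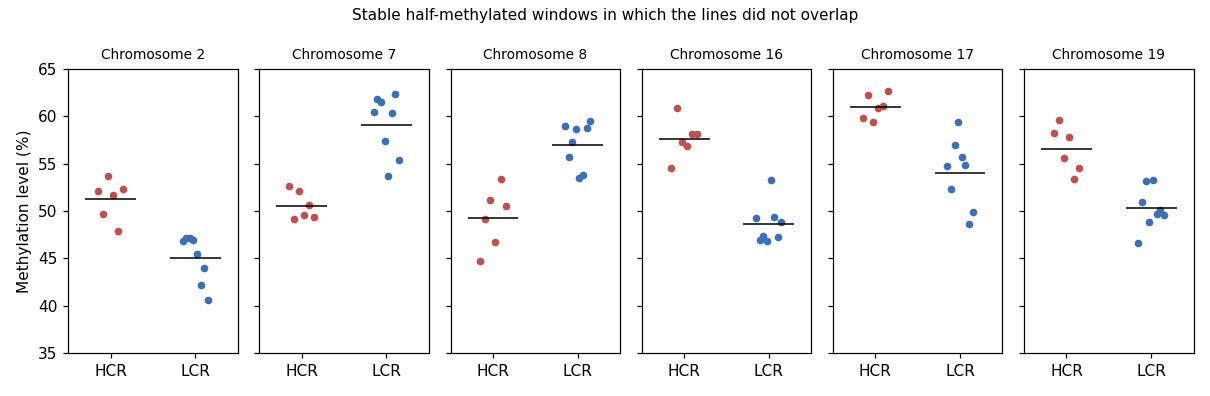
Methylation level (%) of each HCR and LCR sample in the 6 chosen windows whose lines did not overlap; points are samples and horizontal lines are means. The gaps between the lines are small beside the spread within each line, and the axis covers the 35 to 65% allowed by the choice.

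Other windows with large differences overlapped between the lines. The largest difference of all, 9.15 points at chr4:103214001-103215000, came from HCR samples at 46.3 to 50% and LCR samples at 35.3 to 47.3% (limma adjusted p = 0.075). LCR replicate 7 was the sample at 47.3%, and the other LCR samples reached at most 40.8%. At chr1:203044001-203045000 the HCR samples had 57.7 to 64.4% and the LCR samples 49.7 to 58.6%, a difference of 7.68 points (limma adjusted p = 0.0755). At chr1:256665001-256666000 the difference was -7.83 points, with 37.3 to 41.6% in HCR and 38.98 to 51.7% in LCR (limma adjusted p = 0.185).

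The chosen windows were spread over the whole genome. Their share of the windows with a value in every sample ran from 2.88% on chromosome 20 to 4.25% on chromosome 14, and chromosome 1 held the most, 483. Of 2470 autosomal megabases with such a window, 1892 (76.6%) held at least 1 chosen window. By distance from the ends of the chromosomes, the share was 3.48% within 1 Mb of the first or last measured window, 3.82% from 1 to 5 Mb, 3.47% from 5 to 20 Mb and 3.55% farther in.

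On the X chromosome, which was left out of the choice and of which females carry an active and an inactive copy, the same criteria were met by 196 of 3758 windows (5.22%). That share was above those of all 20 autosomes taken whole. On the autosomes the share also varied with the density of windows that had a value in every sample. It was 7.07% in megabases with fewer than 20 such windows and 4.21% in those with 20 to under 50. X was not compared with autosomal megabases of like density. All 14 values lay from 35 to 65% in 10.8% of X windows and in 8.35% of autosomal windows, and 48.4% of those on X had a range of at most 15 points. The X windows had a median level of 50.4% and a median range of 11.2 points. Between 391001 and 413000 on X all 13 windows with a value in every sample had a mean from 35 to 65%, and 7 of them met the criteria. As deposited, this group averaged 52.9% ± 0.913 in the HCR samples and 49.3% ± 1.03 in the LCR samples. A group from 590001 to 602000 had 57.9% ± 1.29 and 55.4% ± 1.06, and one from 89448001 to 89454000 had 51.4% ± 1.83 and 48.6% ± 2.55. These groups were picked after their levels were seen, and their line differences were not tested. Windows on one chromosome are read in the same libraries, and no test was made of the difference between X and the autosomes.

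**Figure D4:**
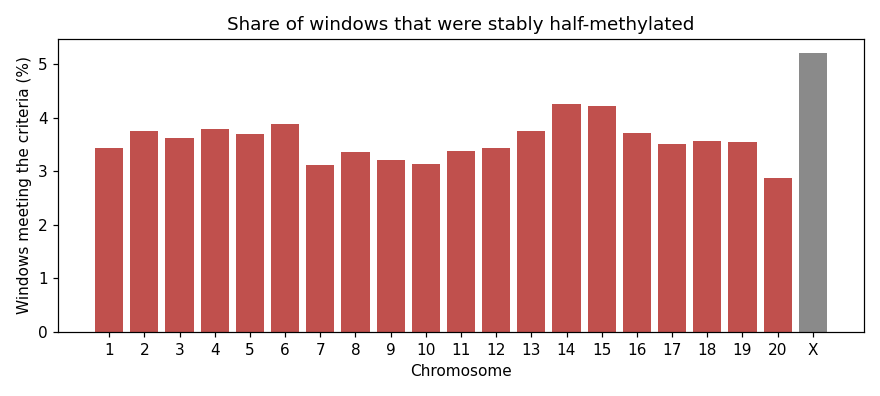
Share (%) of windows with a value in all 14 samples that met the criteria, by chromosome; bars start at 0, and X, which was not part of the choice, is grey. The autosomes lie between 2.88 and 4.25%, and X is at 5.22%. The density of measured windows was not matched between them.

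Stable half-methylated windows were more frequent where RRBS covers the genome thinly. In megabases with fewer than 20 windows with a value in every sample they were 7.07% of the windows, and with rising density the share was 4.21, 3.25, 2.92 and, in megabases with 200 or more, 2.82%. Among windows of their mean level alone they were 18.7% in the thinnest class and 10.9% in the densest. In 3339 of the 4671 (71.5%) the file held neither of the 2 adjacent windows, against 61.6% of the others of the same mean level. Which windows receive a value depends on CCGG sites and on depth, and the part of these in the pattern was not tested.

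The windows beside a stable half-methylated window had on average a higher level than those farther away. Chosen windows were left out of these averages. Windows 1 kb away averaged 44.6%, and 46.4% of them had a mean of 35 to 65%. The average was 37.1% at 2 kb, 36.3% at 3 kb, 34.6% at 5 kb, 33.4% at 10 kb and 34.8% at 20 kb. Beside the other windows of the same mean level the averages were 42.8% at 1 kb, 36.1% at 2 kb, 34.5% at 3 kb, 34.2% at 5 kb, 34.4% at 10 kb and 33.6% at 20 kb. The 2 profiles were within 2 points of each other at these distances. Windows under 10% made up 10.9% of the windows adjacent to chosen ones and 11.3% of those adjacent to the others.

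Both adjacent windows had a value in every sample in 103 chosen windows. In 24 of these (23.3%) both neighbours had means of 35 to 65%, and in 10 (9.71%) one neighbour was under 20% and the other at 60% or more. Among 944 such windows of the same mean level that were not chosen, these shares were 21.2% and 9.64%. The steepest case was chr10:48591001-48592000, at 45.4% between neighbours of 73.8% and 1.83%. At chr3:116140001-116141000, with 51.9%, the neighbours had 4.52% and 65.6%, and at chr7:119971001-119972000, with 53.6%, they had 65.9% and 4.33%. The windows at chr2:175730001-175731000, with 53.5%, and chr5:163730001-163731000, with 53.9%, stood between neighbours of 71.8% and 10.1% and of 75.3% and 13.9%. In these 5 windows, picked for their unequal neighbours, the level lay between a methylated and a sparsely methylated side. Of all 103, 40 (38.8%) lay between their neighbours, 38 (36.9%) above both and 25 (24.3%) below both. Among the 944 windows not chosen these shares were 43.1, 39.8 and 17.1%.

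Adjacent chosen windows were rare. There were 26 runs, 25 of 2 windows and 1 of 3, which held 53 of the 4671 windows (1.13%) on 15 chromosomes. A window beside a chosen one was itself chosen in 4.97% of the 1086 adjacent windows with a value in every sample, and beside the other windows of the same mean level in 3.85% of 10532. Farther from a chosen window the share was 2.96% at 2 kb, 4.84% at 3 kb, 4.74% at 5 kb, 3.28% at 10 kb and 5.01% at 20 kb, so the share at 1 kb did not stand out among these distances. Of all autosomal windows 3.54% were chosen. The 2 windows of a pair had means a median of 4.45 points apart, and 14 of the 25 pairs were within 5 points. In 17 runs neither outer neighbour had a value in every sample, so that the full length of these runs is unknown. All windows of the run were higher in HCR in 12 runs and lower in 5 as deposited, and in 6 and 11 after centring and 3 and 14 after quantile normalization.

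The pairs with the smallest ranges differed in shape. At chr19:24149001-24151000 the HCR samples had medians of 53.1 and 52.9% in the 2 windows, against 50.2 and 47.9% in the LCR samples, and the lines overlapped. At chr5:133801001-133803000 the first window had 53.9 to 57.1% in HCR and 50.4 to 57.3% in LCR, and the second 58.5 to 62.2% in HCR and 49.5 to 60.4% in LCR, where HCR was 5.96 points higher (limma adjusted p = 0.232). At chr4:160612001-160614000 the level stepped down from window to window, with means of 62.2% and 43.2% and a next window at 9.80%. Its first window had 61.3 to 63.9% in HCR and 58.6 to 64.3% in LCR, and its second 38.9 to 49.7% in HCR and 39.9 to 49.7% in LCR. At chr3:141029001-141031000 the means were 43.1% and 59.3%.

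The run of 3 windows lay at chr6:128643001-128646000 and was part of a larger group of stable half-methylated windows. The first window had 42.8, 49.1 and 50.3% as the lowest, median and highest level in the HCR samples, against 38.7, 49.4 and 53.0% in the LCR samples. The second had 45.7, 52.5 and 55.8% in HCR, against 43.7, 50.6 and 55.5% in LCR. The third had 54.8, 58.2 and 60.6% in HCR, against 49.6, 55.1 and 58.8% in LCR. The lines overlapped in all 3, with differences of -0.84, 1.27 and 3.49 points and limma adjusted p-values of 0.946, 0.892 and 0.519. On the left the run was bordered by a window at 16.6% and on the right by one at 39.3%.

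Joining chosen windows at most 10 kb apart put this run in a group of 8, between 128620001 and 128646000 on chromosome 6, and the largest other autosomal groups joined so held 3. All 20 measured windows of these 26 kb had a value in every sample, and 17 of them had a mean from 35 to 65%. Averaged over the 8 chosen windows, the HCR samples had 54.2% ± 1.51 and the LCR samples 53.2% ± 1.68, and single windows had means of 47.9 to 57.8%. Of the 8, 7 were higher in HCR as deposited, 3 after centring and 1 after quantile normalization. In a wider interval, from 128603001 to 128666000, 25 of 28 windows (89.3%) had a mean of 35 to 65%, against 33.8% of autosomal windows, and none of the 28 was called by limma. The bounds of these groups and intervals were drawn after the levels were seen, and no test was made of them.

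**Figure D5:**
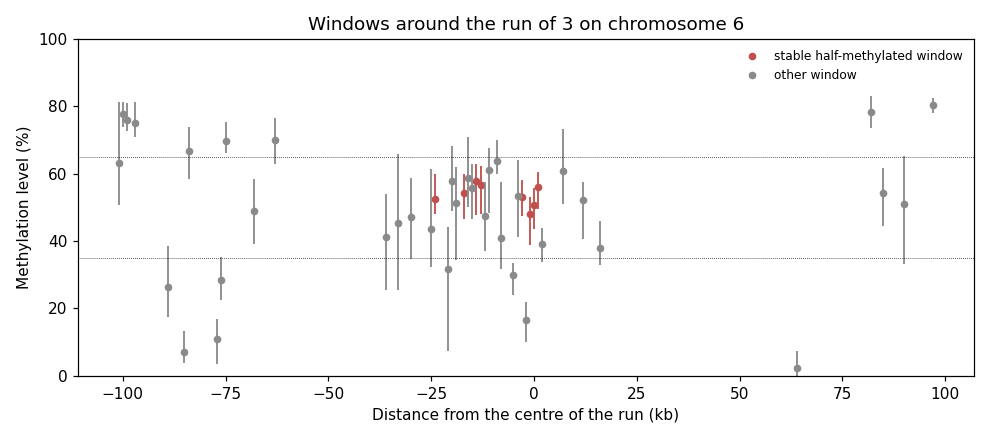
Methylation level (%) of the windows with a value in all 14 samples around the run of 3 on chromosome 6, by distance in kb from its centre; points are means over the 14 samples, vertical lines run from the lowest to the highest sample, and dotted lines mark 35 and 65%. From 36 kb before to 16 kb after the centre 25 of 28 windows have intermediate means, and 8 met the criteria; farther out, means run from 2.49 to 80.4%.

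Groups of 6 and 7 windows appeared on chromosomes 5 and 18 when gaps of up to 25 kb were joined. From 29536001 to 29594000 on chromosome 18, 7 of 29 windows with a value in every sample met the criteria and 21 had means of 35 to 65%. Between them lay windows down to 12.0%, and none under 10%. Over these 7 the HCR samples had 48.3% ± 1.503 and the LCR samples 47.4% ± 1.13. From 164069001 to 164138000 on chromosome 5, 6 of 9 windows met the criteria, with averages of 50.95% ± 1.5998 in HCR and 50.9% ± 1.77 in LCR, and 1 of the other 3 was at 8.78%. In the groups of 6 and 7 windows the lines differed by less than the spread between samples, and the sign of the average difference changed with the scaling of the libraries. Chromosome 5 also held the 2 megabases with the most chosen windows, 16 each, from 163000001 to 165000000. They had 209 and 191 windows with a value in every sample, so the shares were 7.66 and 8.38%. Among megabases with 50 or more such windows the highest share was 13.7%.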

How the data were processed

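RRBS libraries were made from 100 ng of DNA with a Diagenode kit, per the labels' protocols. Trim Galore 0.6.10, Bismark, Bowtie2 and the build rn7 are named in the submitters' processing notes. The authors deposited the percent methylation of each library in 1000 bp windows, and per the file headers no read counts. For the coverage minimum, window caller and duplicate treatment, nothing is given in the sources used here. Depth is therefore unknown, and errors are spreads between samples. Columns were matched to samples by library name, and 0 sample columns were unused.

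Levels were transformed to log2((level + 0.01)/(1 - level + 0.01)) and compared between lines with limma 3.58.1 in R 4.3.3 (variance trend, two-sided, Benjamini-Hochberg over all 135802 windows with a value in every sample). Calls are windows with an adjusted p under 0.05, and the procedure was tested on simulated data. Other steps used Python 3.11.15, numpy 2.4.6 and pandas 2.3.3. Windows named were the called ones, the 5 longest runs, the 5 smallest ranges, the 3 on either side of the range limit, the 3 largest differences per direction and the 5 with the most unequal neighbours. The separated windows and the groups were added after their values were seen. The members and tests were chosen with earlier results of these data known. Alternatives were another offset, untransformed levels, no moderation, autosomes, centring, quantile normalization, a replicate block, other limits of the rule and leaving out each sample. Gene positions and sequence on rn7 were not used here.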

Additional observations from a re-analysis of the deposited data

Results flagged for a closer look

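In 72 sets of values, 3 sample measures and 33 named windows in each line, 8 held a sample whose gap to its nearest neighbour was large beside the range of its line. Chance flags about 1 in 20 sets drawn at random. The named windows were picked on these same values, so that rate does not apply to them and no excess can be read. For the mean over the stable half-methylated windows, HCR replicate 3 had 50.6% and the other HCR samples 51.4 to 51.95%.

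In the called window on chromosome 16, LCR replicate 5 had 53.2% and the other LCR samples 46.9 to 49.4%. In the window with the largest difference, on chromosome 4, LCR replicate 7 had 47.3% and the others 35.3 to 40.8%. In the window just inside the range limit on chromosome 5, LCR replicate 3 had 40.4% and the others 45.7 to 50%.

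In 2 windows with unequal neighbours HCR samples stood high: replicate 4 had 60.8% on chromosome 3, with the others at 47.8 to 52.2%, and replicate 5 had 62.6% on chromosome 5, with the others at 50.4 to 54.4%. In the first window of the chromosome 3 pair, HCR replicate 5 had 38.5% and the others 42.7 to 44.8%. In the steady window on chromosome 1, LCR replicate 3 had 61.1% and the others 63.3 to 64.8%. No cause of these values was tested.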

How the results depend on the processing

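Quantile normalization, an unblocked fit of 12 samples and windows lacking 1 to 4 values were alternatives chosen after seeing the data. Over all windows the 773 calls became 71 with the replicate block and 444 with the same 12 samples without it. Leaving out each sample gave 495 to 669, with 495 without HCR replicate 2. Replicate numbers did not pair the samples: deviations of same-numbered samples correlated at -0.03 to 0.03, and 1 of 6 HCR samples was nearest to its own number. The 1 call among the chosen windows became 2 with an offset of 0.05, 3 with untransformed levels, 6 without moderation and 0 by limma with centring, the replicate block or its 12 samples unblocked, where 127, 86 and 144 chosen windows had an unadjusted p under 0.05. It was 0 to 3 when a sample was left out: 0 without HCR replicate 2, 5 or 6 or LCR replicate 2, 3 or 4 (156 to 174 at an unadjusted p under 0.05), 2 without LCR replicate 1 or 5 and 3 without LCR replicate 7. After quantile normalization, and without HCR replicate 4, the 1 call was a window other than that on chromosome 16. The mean line difference of 0.560 points was -0.558 after centring and -0.970 after quantile normalization, and 0.451 to 0.736 with a sample left out. The number of chosen windows was 1191 with a range of at most 10 points, 8187 with 20, 1973 for levels of 40 to 60%, 8103 for 30 to 70%, 13214 on HCR samples alone and 10497 on LCR samples alone. The 53 windows in runs became 204 with gaps of up to 5 kb and 178 with a range of up to 20 points. Unknown depth limits how far small line differences can be read. The cause of these changes was not tested.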
